A study of Mus musculus with 9 samples.

Results

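ST2 cells that had taken up neutrophils were compared at 24 h and at 3 h of feeding, across all expressed genes. ST2 is an established line of mouse stromal cells, derived from bone marrow, that can form bone- and fat-like cells in culture. At 80% confluence the cells received human neutrophils at the end of their life, at 10 neutrophils per ST2 cell. The neutrophils had been kept frozen for 18 h or longer, and the dye eFluor670 (20 µM) marked them. After 3 h or 24 h, ST2 cells were collected by flow cytometry if they carried at least the dye signal of a whole neutrophil. The members of the comparison are the 3 libraries of each fed group (fed 3 h and fed 24 h), which are 6 of the 9 libraries of the series. The other 3 are unfed ST2 cells of the same line, collected at 24 h (unfed), and their values stand beside those of the fed groups. Of 55453 lines in the count table, 13568 genes had enough counts to be tested. There was no unfed library at 3 h, so the time since feeding and the extra time in culture cannot be told apart. Both fed groups were sorted for uptake, and whether the gate kept the same kind of cell at both times was not tested. The replicates are numbered, but nothing says that they were separate cultures, and p-values therefore measure only the spread between these libraries, which may be technical. All came from 1 line, and the engulfed cells were human and already frozen, which limits what the groups can stand for.

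Efferocytosis is the clearance of dying cells by other cells. It begins with bridging proteins and receptors that recognise lipids on the dying cell, continues with rearrangement of the actin cytoskeleton around it, and ends with its breakdown in lysosomes, which frees sterols, fatty acids, nucleotides and iron. Bone marrow stromal cells are better known as the source of osteoblasts and of the factors that hold blood stem cells in the marrow, chiefly CXCL12 and stem cell factor. The title of the series names osteoblastic differentiation and mitochondrial remodelling beside uptake by these cells.

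The 9 libraries held 44442664 to 55971275 counts each, and 3 libraries a group set the precision of every value. Levels are given as CPM, a count scaled to the total of its library. Over the 6 fed libraries alone, the leading principal component (log2 CPM) held 77.2% of the variance and separated the fed 3 h from the fed 24 h libraries. Mitochondrially encoded genes took 1.496, 1.58 and 1.12% of the counts in fed 3 h and 1.85, 2.22 and 1.78% in fed 24 h (exact permutation test, two-sided p = 0.1, the smallest that 3 against 3 allows). Gm42418 and Gm26917, which collect ribosomal RNA reads, took 0.107, 0.0927 and 0.249% against 0.343, 0.201 and 0.350%, and the groups overlapped (exact p = 0.2). The nuclear RNAs Malat1 and Neat1 together took 0.0165% in fed 3 h replicate 2 and at most 0.00787% in every other library. Markers of stromal cells summed to 27069 to 27254 CPM in fed 3 h and 34338 to 35262 CPM in fed 24 h, with 9 of 12 markers tested, of which 5 were higher and 2 (Col1a1 and Twist2) lower at 24 h. Col1a1, Col1a2 and Cxcl12 made up most of that sum, and Pdgfra, Pdgfrb and Prrx1 were detected too, while Thy1, Lum and Dcn had at most 6 counts summed over the 3 libraries of a group. Of 32 neutrophil markers, 7 were tested, of which 4 were higher (Camp, Mmp9, Alox5ap and Lyz2) and 3 lower, Lcp1 and Itgb2 among them, at 24 h. Their list summed to 9.17 to 10.7 CPM in fed 3 h, 15.9 to 17.9 CPM in fed 24 h and 10.9 to 14.7 CPM in unfed cells, and 7 of the 32, S100a9, Ctsg, Ngp and Retnlg among them, had 0 counts in all 6 fed libraries. Camp, Mmp9, Alox5ap and Lyz2 had 355, 102, 300 and 605 counts summed over the unfed libraries too. The engulfed neutrophils were human and these are mouse genes, so the list cannot show whether neutrophil RNA was present. Of 18 macrophage and monocyte markers 3 were tested, and their list summed to 25.02 to 25.5 CPM in fed 3 h against 19.3 to 21.3 CPM in fed 24 h, most of it from Cd14, while Adgre1 and the 3 C1q genes had 0 counts. Endothelial, erythroid and platelet, and lymphocyte lists summed to under 6 CPM in each fed library. The part of these marker levels in the results below was not tested.

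Between 3 h and 24 h, 8265 genes, 60.9% of those tested, changed at an adjusted p under 0.05 (edgeR quasi-likelihood F-test, Benjamini-Hochberg adjustment over all 13568 genes). Of these, 4174 (30.8%) were higher at 24 h and 4091 (30.2%) lower. For called genes, the typical size of a change was modest, with a median of 0.41 in absolute log2 units. As many as 756 genes (5.57%) were called and at least 2-fold higher, against 429 (3.16%) at least 2-fold lower. At least 4-fold changes numbered 180 and 93, and at least 8-fold changes 51 and 32. The 3 libraries of one group lay wholly above the 3 of the other for 8943 genes (65.9%). Over all tested genes the median absolute log2 fold change was 0.28 between the fed groups, 0.14 between fed 24 h and unfed cells, and 0.22 between fed 3 h and unfed cells. These 3 comparisons share libraries, so they are set side by side and not tested against each other. With such a background, a list of genes in which about 30% rose and 30% fell is no different from the table as a whole. The shares of 30.8% higher and 30.2% lower are to be read beside every count of list members below.

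**Figure D1:**
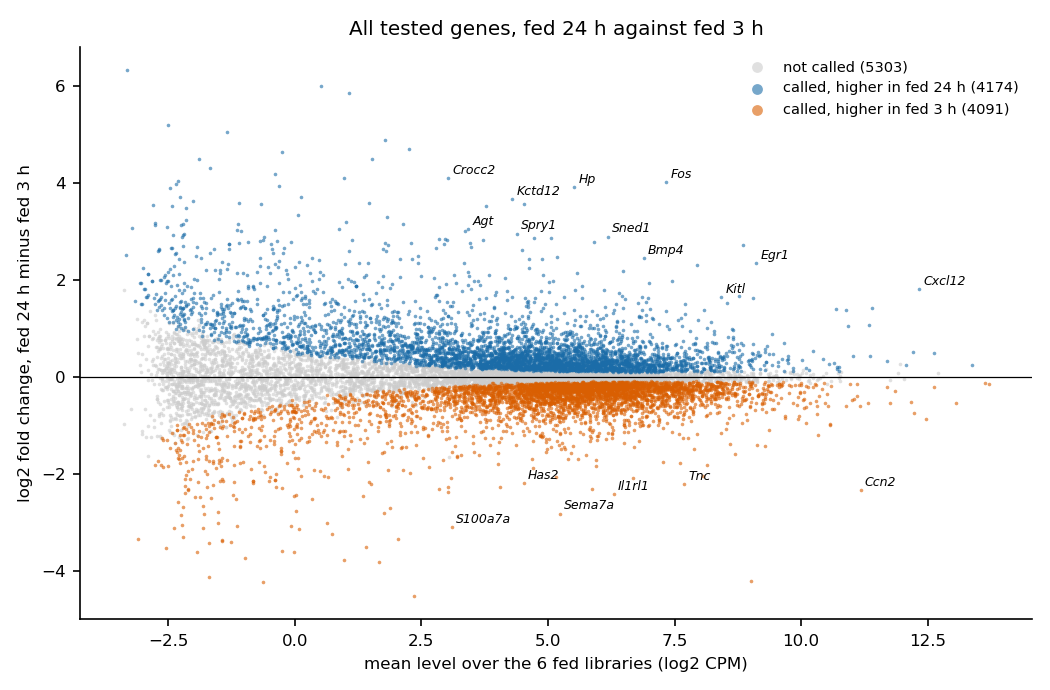
Each point is 1 of the 13568 tested genes, with its mean level over the 6 fed libraries (log2 CPM) on the x axis and the log2 fold change of fed 24 h minus fed 3 h on the y axis. Blue points (4174) were called higher in fed 24 h, orange points (4091) higher in fed 3 h, and grey points were not called. Fos and Hp lie near 4 at the top, and S100a7a and Sema7a near -3 below the zero line.

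Where the higher group averaged 10 CPM or more, the largest rises were led by Crocc2, Fos, Hp, Kctd12 and Islr, and the largest falls included S100a7a, Sema7a, Il1rl1 and Klf5. The levels here are CPM scaled by TMM factors, and they are compared between libraries and not between genes. Log2 fold changes are fed 24 h minus fed 3 h throughout, and values in parentheses after a gene are log2 fold changes. Crocc2, a relative of the centrosomal protein rootletin, stood at 1.11, 0.892 and 0.699 CPM in fed 3 h and at 15.8, 14.5 and 15.9 CPM in fed 24 h, a log2 fold change of 4.09 (SE 0.171, adjusted p = 4.45e-11). Hp (GRCm38 chromosome 8, 109575128 to 109579172) encodes haptoglobin, the plasma protein that binds free haemoglobin. Its level was 5.76, 5.20 and 6.14 CPM at 3 h and 93.5, 81.8 and 82.1 CPM at 24 h, 15.0-fold higher (log2 fold change 3.91, SE 0.148, adjusted p = 1.83e-11), with 45.0 ± 11.4 CPM in unfed cells (SD, n = 3). The haptoglobin libraries of the groups did not overlap, and the unfed cells lay between them. The other large rises were Kctd12 (3.66), Islr (3.57), the angiotensin precursor Agt (3.05), the melanocortin receptor Mc5r (3.00), the growth factor signalling inhibitor Spry1 (2.95), the matrix genes Sned1 (2.89) and Spon2 (2.85), Fosb (2.87) and Plekha6 (2.85), all as log2 fold changes.

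Among the large falls, Il1rl1, the receptor of the alarmin interleukin 33, was at 136, 132 and 129.7 CPM in fed 3 h and 24.7, 25.6 and 24.0 CPM in fed 24 h, with replicates close together in both (log2 fold change -2.42, adjusted p = 6.78e-12). Sema7a, a membrane-anchored semaphorin, fell from 66.0 ± 16.3 to 9.33 ± 0.656 CPM (SD, n = 3 each). Has2, which makes hyaluronan, fell from 37.8 ± 5.58 to 8.29 ± 0.615 CPM, and Tnc, the matrix protein tenascin C, from 341 ± 51.3 to 73.4 ± 1.96 CPM. Other large falls were S100a7a (log2 fold change -3.11), the transcription factor Klf5 (-2.37), Ccn2 (-2.34), Aif1l (-2.32), the chromatin protein Hmga2 (-2.31), Rasgrp3 (-2.28) and the magnesium transporter Nipal1 (-2.27). The unfed mean lay between the fed means for 11 of the 12 rises and for all 11 falls named here. Fosb was the exception, with 3.19 CPM in unfed cells against 8.06 and 58.6 CPM. These genes were chosen for the distance between the fed groups, so the position of the unfed mean is a description only.

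Immediate early genes, which are transcribed within minutes of a stimulus and encode short-lived transcription factors, were mostly higher at 24 h than at 3 h. Of 29 tested, 17 rose and 8 fell, 58.6% and 27.6% against 30.8% and 30.2% of all genes. The median log2 fold change was 0.58 against -0.0017 over all genes. Without fed 3 h replicate 3 this median was 0.39, and without fed 24 h replicate 1 it was 0.48. Fos (GRCm38 chromosome 12, 85473890 to 85477273), a subunit of the factor AP-1, was at 8.70, 29.7 and 18.1 CPM in fed 3 h, 305, 252 and 355 CPM in fed 24 h and 21.9, 25.3 and 31.7 CPM in unfed cells. Fos was high in the fed 24 h libraries alone, and its fed groups differed by a log2 fold change of 4.02 (SE 0.269, adjusted p = 4.94e-09). Its partners Jun (log2 fold change 0.98) and Junb (1.26) rose, whereas the AP-1 genes Fosl1 (-1.01) and the small factor Maff (-0.86) fell. Egr1, a zinc finger factor, was at 154, 247 and 149 CPM at 3 h and 1195, 788 and 791 CPM at 24 h (log2 fold change 2.34, adjusted p = 3.74e-08), with replicate 1 the highest of the fed 24 h libraries. In the group of EGR, NR4A and IER genes 7 of 9 rose and 1, Ier5 (log2 fold change -0.50), fell. Egr2 (log2 fold change 2.08), Egr3 (1.97) and the nuclear receptor Nr4a1 (2.09) were each about 4-fold higher. Of 11 KLF and other members, 5 rose and 5 fell. Btg2 (log2 fold change 1.96) and Klf2 (1.51) were higher, and Gadd45b (-1.498), Klf10 (-0.86) and Srf (-0.55), the serum response factor itself, were lower. Fosb differed between the fed 3 h libraries, at 2.10, 15.7 and 6.43 CPM, and the AP-1 median was 0.58 in all libraries, 0.81 without fed 3 h replicate 2 and 0.37 without fed 3 h replicate 3.

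Inhibitors that ERK signalling, a growth factor pathway, switches on to limit itself were split, with 6 of 15 higher and 6 lower. These were 40% each, against 30.8% and 30.2% of all genes. Dusp1, a phosphatase of stress kinases, rose from 93.4 ± 13.5 to 199 ± 12.6 CPM, and Spry1, Spry2 (log2 fold change 0.51) and Spry4 (0.55) rose with it. The phosphatases Dusp4 (log2 fold change -1.04), Dusp5 (-0.88) and Dusp10 (-0.87) and the inhibitor Spred2 (-0.44) fell. Secreted growth factors of stroma were lower in 9 of 15 genes (60% against 30.2% of all genes) and higher in 3 (20% against 30.8%). Their median was -0.79, or -0.49 without a filter on low counts. Inhba, the activin A subunit, was at 191, 146 and 161 CPM in fed 3 h and 38.0, 36.9 and 42.1 CPM in fed 24 h (log2 fold change -2.09, SE 0.106, adjusted p = 2.63e-10). Fgf2 (log2 fold change -1.71), the EGF-like ligand Hbegf (-1.70) and the blood vessel factor Vegfa (-0.99) fell too. Hgf, hepatocyte growth factor, went the other way, from 42.9, 43.4 and 41.0 CPM to 123.1, 112 and 125 CPM (log2 fold change 1.502, adjusted p = 8.37e-10), and Fgf7 rose by less (0.49).

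**Figure D2:**
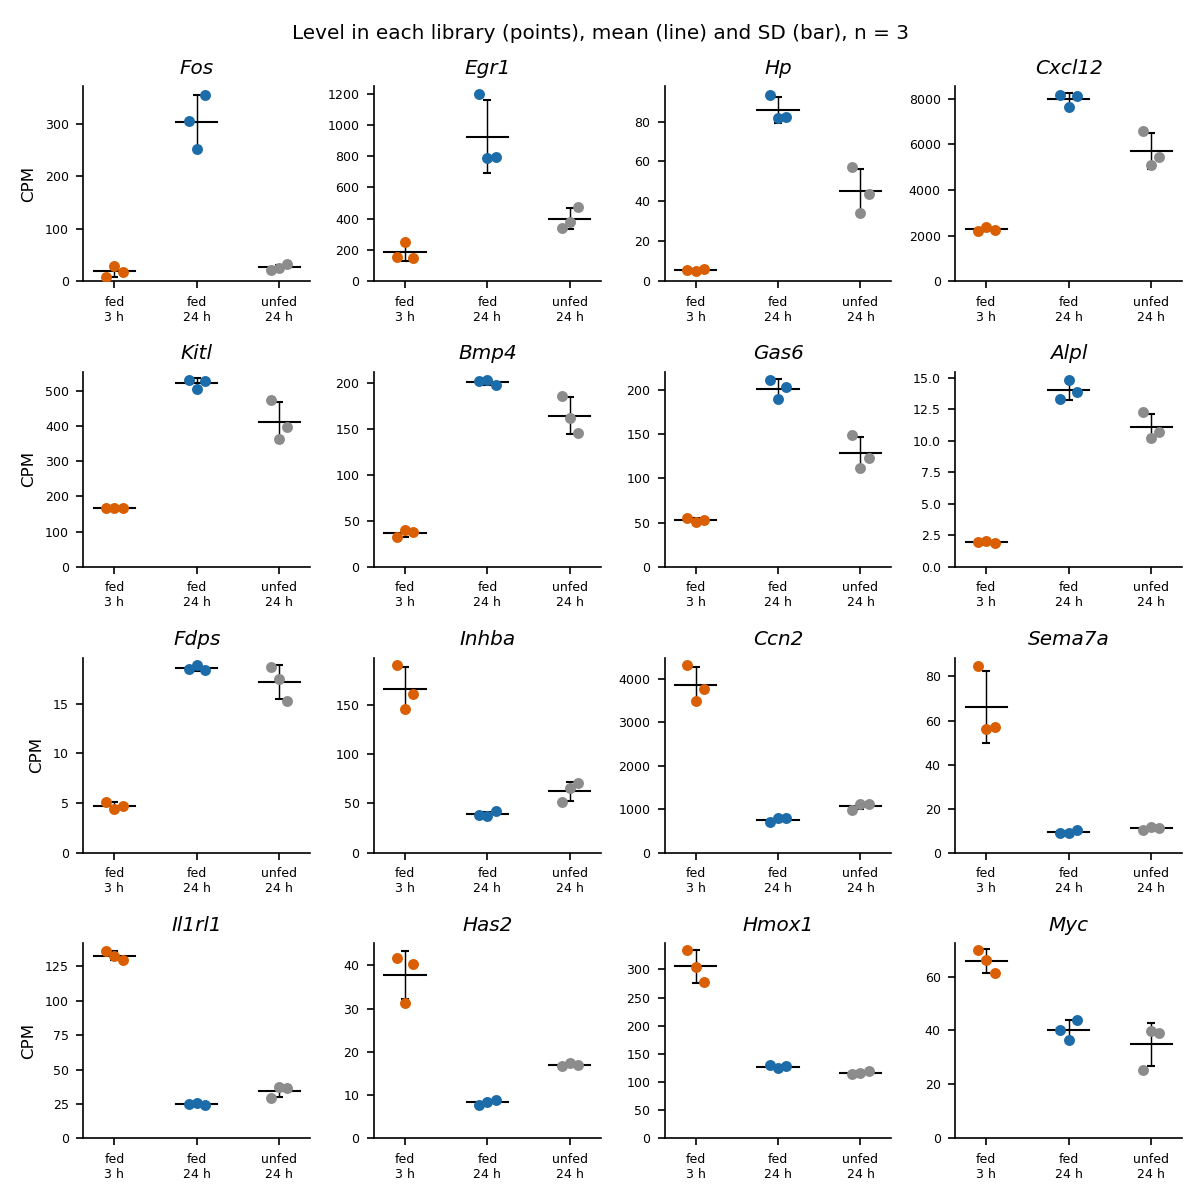
Level of 16 genes in CPM (y axis, from 0) in each library, grouped on the x axis as fed 3 h, fed 24 h and unfed 24 h, with the mean (line) and SD (bar) of 3 libraries. Fos is high in fed 24 h alone, at 252 to 355 CPM, whereas Ccn2 is high in fed 3 h alone, at 3485 to 4317 CPM.

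Genes of the contractile cytoskeleton were lower at 24 h. Of 27 actin and contractile genes, 24 fell (88.9% against 30.2% of all genes) and 1 rose, with a median log2 fold change of -0.55. Tagln, the actin-binding protein transgelin, was at 884, 863 and 933 CPM in fed 3 h and 422, 428 and 402 CPM in fed 24 h (log2 fold change -1.10, SE 0.0550, adjusted p = 2.36e-10), and the groups were far apart. The genes of calponin 1 (Cnn1, log2 fold change -1.19), tropomyosin 1 (Tpm1, -0.95) and smooth muscle actin (Acta2, 7309.6 to 4002 CPM, -0.87) fell alongside. The member that rose was Fhl2, a cofactor of serum response factor, by 0.40 on the log2 scale. The count that rose was 2 without fed 3 h replicate 1, without unfed replicate 1, under upper quartile scaling and in a fit of the 6 fed libraries. Over the list, unfed cells stood close to fed 24 h cells, with per-library medians of -0.41 to -0.57 relative to the fed 3 h mean against -0.54 to -0.59. Targets of YAP, a transcriptional cofactor that responds to cell shape and stretch, fell in 8 of 13 genes and rose in 3 (median -0.63). These were 61.5% and 23.1%, against 30.2% and 30.8% of all genes. Ccn2, the matricellular protein CTGF (GRCm38 chromosome 10, 24595442 to 24598683), was at 4317, 3485 and 3781 CPM in fed 3 h, 707, 786 and 790.1 CPM in fed 24 h and 986, 1112 and 1111 CPM in unfed cells (fed 24 h minus fed 3 h log2 fold change -2.34, SE 0.0756, adjusted p = 6.78e-12). Ankrd1 (log2 fold change -1.75), Ajuba (-1.01) and Nuak2 (-0.99) fell with it, but Ccn1, often listed beside Ccn2 as a YAP target, rose from 493 ± 11.1 to 660.2 ± 40.6 CPM (0.42).

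The promoters of contractile genes are a textbook home of the CArG box, the site of serum response factor, and the 2 called members of largest change that hold it are shown. In RefSeq promoter windows of GRCm38.p6, taken as the 250 bases before the annotated start and read on both strands, a CArG box was found in 21.4% of the 28 windows of the list, in 5 of the 24 members with a window, against 1.47% of all 32851 windows. Members with the box were Actg1, Cnn2, Fhl2, Myl9 and Vcl, so it was present in the gene that rose as well. Cytoplasmic gamma actin, Actg1, fell from 1331 ± 85.7 to 862 ± 46.0 CPM, and vinculin, Vcl, which links actin to adhesions, from 1524 ± 72.9 to 1009 ± 23.2 CPM. The windows are chr11:120348496-120348745 on the minus strand for Actg1 and chr14:20929148-20929397 on the plus strand for Vcl, written 5′ to 3′ with the CArG box in capitals.
Actg1: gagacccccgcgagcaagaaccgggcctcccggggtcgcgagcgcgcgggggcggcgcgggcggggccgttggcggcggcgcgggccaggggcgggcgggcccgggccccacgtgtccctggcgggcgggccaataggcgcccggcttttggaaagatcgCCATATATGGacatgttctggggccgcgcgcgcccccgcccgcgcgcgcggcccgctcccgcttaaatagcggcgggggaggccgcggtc
Vcl: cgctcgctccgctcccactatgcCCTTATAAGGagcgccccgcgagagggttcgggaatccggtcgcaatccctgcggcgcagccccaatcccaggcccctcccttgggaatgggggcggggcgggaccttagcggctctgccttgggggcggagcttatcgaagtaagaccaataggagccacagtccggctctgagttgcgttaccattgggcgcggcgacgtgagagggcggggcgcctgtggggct
The box starts 90 bases before the annotated start in Actg1 and 227 bases before it in Vcl. A match of letters is a description and does not show binding.

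Genes of the matrix moved in both directions. Of 15 tested collagens, 7 rose and 6 fell, 46.7% and 40% against 30.8% and 30.2% of all genes. The beaded-filament collagen chains Col6a1 and Col6a2 rose together. Col6a1 was at 1496, 1455 and 1475 CPM in fed 3 h and 3973, 3954 and 3935 CPM in fed 24 h (log2 fold change 1.42, SE 0.0504, adjusted p = 1.19e-11), and Col6a2 changed by 1.37. Their partner chain Col6a3 fell, from 3014 ± 99.8 to 2077 ± 123.2 CPM (log2 fold change -0.54). The minor fibrillar chains Col5a2 (log2 fold change -0.61) and Col5a3 (-0.97) and the basement membrane chain Col4a1 (-0.55) were lower. Col1a1, the main chain of bone and skin collagen, differed little (13255 ± 162 against 12111 ± 690.0 CPM, log2 fold change -0.13, adjusted p = 0.0385), and its call was lost under 10 of the 18 alternatives, the omission of any one of the fed 3 h libraries among them. Of 19 genes that process collagen, 9 rose and 6 fell. The crosslinking enzyme Lox rose (log2 fold change 0.50) while its relatives Loxl1 (-0.42), Loxl2 (-1.03) and Loxl3 (-0.69) fell. Pcolce, an enhancer of procollagen cleavage, rose (log2 fold change 0.46), and its paralogue Pcolce2 fell (-1.18). Among 24 other matrix genes, 9 rose and 11 fell. Fbln1 (log2 fold change 1.18) was higher and Fbln2 (-0.98) lower, and Cd44, the hyaluronan receptor, fell from 623 ± 72.6 to 207 ± 3.31 CPM (-1.59).

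Matrix proteases and their inhibitors also turned over, with 14 of 26 higher and 11 lower, 53.8% and 42.3% against 30.8% and 30.2% of all genes. In each direction 6 changed at least 2-fold. The aggrecan-cleaving ADAMTS proteases rose. Adamts1 was at 56.5, 58.2 and 54.7 CPM and then 167, 156 and 165 CPM (log2 fold change 1.53, SE 0.0462, adjusted p = 6.78e-12), Adamts5 changed by 1.36 and Adamts9 by 2.59. Mmp13, a collagenase, rose from 4.52 ± 1.41 to 16.8 ± 1.20 CPM. The protease inhibitor Timp3 fell from 428 ± 54.6 to 103 ± 4.11 CPM (-2.05), Adam12 by 1.85 and the urokinase receptor Plaur by 1.62 on the log2 scale.

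Genes of the acute phase and complement list were higher at 24 h. Of 9 tested members 8 rose (88.9% against 30.8% of all genes), all at least 2-fold, and none fell (median 1.97). Besides haptoglobin, the complement protease C1s1 was at 13.9, 14.7 and 13.1 CPM in fed 3 h and 55.9, 49.1 and 58.1 CPM in fed 24 h (log2 fold change 1.97, SE 0.0952, adjusted p = 1.61e-10), against 28.3 CPM in unfed cells. The central component C3 rose from 0.943 ± 0.137 to 6.23 ± 0.286 CPM. Interferon-stimulated genes, which encode antiviral proteins, rose in 24 of 29 (82.8% against 30.8% of all genes) and fell in none (median 0.86). Their levels were low. Isg15, a ubiquitin-like modifier, was at 4.11, 5.09 and 5.30 CPM and then 10.6, 10.2 and 9.80 CPM (log2 fold change 1.08, adjusted p = 1.83e-06), with 7.77 CPM in unfed cells. The immunoproteasome subunit Psmb9 (log2 fold change 1.24), the membrane tether Bst2 (0.99) and the RNA sensor Ddx58 (0.91) rose with it, and Gbp7, a GTPase against vacuolar pathogens, went from 0.836 ± 0.329 to 2.42 ± 0.0570 CPM.

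Interferon genes are classically recognised through the interferon-stimulated response element, searched here on both strands as a pair of TTTC blocks with 2 bases between them. It was present in 37% of the 27 windows of the list, in 10 of 23 members with a window, against 2.98% of all windows. The members with the element were Bst2, Gbp2, Gbp3, Gbp7, Ifit1, Ifit3, Ifit3b, Isg15, Oas1a and Stat2. Of these, Oas1a was tested but not called changed (1.91 against 2.07 CPM). Gbp7 (chr3:142530086-142530335, plus strand) and Isg15 (chr4:156200819-156201068, minus strand, RefSeq, GRCm38.p6) are shown as the called members of largest change that hold it, with the element in capitals.
Gbp7: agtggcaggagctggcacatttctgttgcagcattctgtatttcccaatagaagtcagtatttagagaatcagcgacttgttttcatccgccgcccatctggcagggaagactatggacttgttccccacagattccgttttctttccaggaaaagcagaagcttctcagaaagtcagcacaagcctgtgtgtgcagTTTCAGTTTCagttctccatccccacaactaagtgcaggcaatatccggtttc
Isg15: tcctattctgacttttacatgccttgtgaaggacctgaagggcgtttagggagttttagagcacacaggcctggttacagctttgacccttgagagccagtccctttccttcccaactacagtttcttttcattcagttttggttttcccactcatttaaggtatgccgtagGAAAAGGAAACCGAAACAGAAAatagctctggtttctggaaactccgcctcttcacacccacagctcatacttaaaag
In Isg15 3 overlapping copies start 78, 72 and 66 bases before the annotated start, and in Gbp7 1 copy starts 53 bases before it.

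Chemokines and cytokines rose in 7 of 13 tested genes and fell in 3, and with a stricter filter on low counts 4 rose. The neutrophil attractant Cxcl1 was at 2.91, 4.20 and 2.90 CPM in fed 3 h, 17.5, 9.34 and 16.2 CPM in fed 24 h and 2.48, 3.51 and 4.78 CPM in unfed cells (log2 fold change 2.11, adjusted p = 1.12e-06). The monocyte attractants Ccl2 (log2 fold change 0.63) and Ccl7 (0.58) rose by less. Ptgs2, the inducible cyclooxygenase, fell from 68.5 ± 13.2 to 31.0 ± 4.35 CPM, and the macrophage growth factor Csf1 by 0.21 on the log2 scale. Subunits and inhibitors of NF-kappaB, a master factor of inflammation, rose in 8 of 13 genes and fell in 1. These were 61.5% and 7.69%, against 30.8% and 30.2% of all genes. The inhibitors Nfkbia (log2 fold change 0.85), Nfkbie (0.87) and Nfkbiz (0.90) were higher, and Tnfaip3 was lower (-0.31). The count of NF-kappaB genes that rose was 4 without fed 3 h replicate 2, and 5 without fed 3 h replicate 3 or without fed 24 h replicate 3, and the count that fell was 2 without fed 3 h replicate 2 or fed 24 h replicate 3. Il6 had too few counts to be tested.

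The machinery that builds ribosomes was lower at 24 h in every gene examined. All 44 ribosome biogenesis factors fell (100% against 30.2% of all genes), by log2 fold changes of -0.34 to -1.28 with a median of -0.80. Rrp12, a ribosome export factor, was at 104, 98.4 and 99.2 CPM in fed 3 h and 40.7, 44.01 and 39.1 CPM in fed 24 h (log2 fold change -1.28, SE 0.0892, adjusted p = 7.41e-09), with 60.9 CPM in unfed cells. Polr1b, a subunit of RNA polymerase I, was at 41.3, 38.3 and 42.4 CPM and then 16.7, 19.6 and 15.9 CPM (log2 fold change -1.22). Nucleostemin (Gnl3, log2 fold change -1.16) and the chaperone Grwd1 (-1.16) followed. Relative to the fed 3 h mean, the median of the list was -0.77 to -0.84 in the fed 24 h libraries and -0.42 to -0.70 in the unfed libraries. Myc, the factor best known for driving these genes, fell from 65.8 ± 4.36 to 40.1 ± 3.78 CPM (log2 fold change -0.72, adjusted p = 7.63e-05), with 34.8 ± 8.07 CPM in unfed cells. Its antagonists Mxd1 (log2 fold change 0.71), Mxd3 (0.48) and Mxd4 (51.3 to 114 CPM, 1.15) rose. Of 10 genes of this network 4 rose and 4 fell, Mga (log2 fold change -0.49) and Max (-0.14) among the lower ones. The count that fell was 2 without fed 3 h replicate 1 or with upper quartile scaling. The E-box CACGTG, which MYC can bind, was in 7.14% of the 42 windows of ribosome biogenesis genes, in 6.02% of all windows and in 8.15% of the windows of tested genes.

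The structural proteins of the ribosome did not move with its builders. Of 57 cytosolic ribosomal protein genes, 0 rose and 4 fell by the edgeR test, with a median log2 fold change of -0.02. The 4 were Rpl8 (log2 fold change -0.19), Rps2 (-0.18), Rpl18 (-0.16) and Rpl7a (-0.12), the last with the smallest change. This split depended on the scaling, the test, the filter and single libraries. Under upper quartile factors 6 were higher and 2 lower. Without fed 3 h replicate 3, 8 were higher and 2 lower, and without fed 24 h replicate 3, 3 were higher and 1 lower. Without a filter 3 were higher. With DESeq2's Wald test, limma-voom, a stricter filter, the 6 fed libraries alone or unfed replicate 1 left out, 1 was higher. Many of these genes have near-identical pseudogenes, and how reads of several matches were counted is not given in the sources used here. Host genes of small nucleolar RNAs and nuclear long RNAs fell in 12 of 14 (median -0.65), Snhg4 (log2 fold change -1.22) and Snhg1 (-0.77) among them. Malat1 was at 71.2, 154 and 55.1 CPM in fed 3 h, with replicate 2 far above the others. Without that library 7 of the list fell and the median was -0.36, and without fed 24 h replicate 2 7 fell too.

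Supply of translation was lower as well. All 15 aminoacyl-tRNA synthetases, which load amino acids onto transfer RNAs, fell, with a median of -0.35 and Nars (log2 fold change -0.57) and Iars (-0.56) at the lower end. Among 25 genes of the ATF4 response to amino acid shortage, 15 fell and 4 rose, 60% and 16% against 30.2% and 30.8% of all genes. Slc7a5, which imports large neutral amino acids, was at 503, 447 and 475 CPM in fed 3 h and 208, 224 and 201 CPM in fed 24 h (log2 fold change -1.17, SE 0.0649, adjusted p = 6.64e-10). Slc7a1 (log2 fold change -0.94), the serine enzyme Shmt2 (-0.86) and Nupr1 (-0.81) fell, while Ddit4 (0.70) and the glutamine carrier Slc38a2 (0.45) rose. Cytosolic and mitochondrial chaperones fell in 16 of 26 genes (61.5% against 30.2% of all genes) and rose in 4 (15.4% against 30.8%). Without fed 3 h replicate 1 the count that rose was 2. The mitochondrial chaperonin Hspd1 was at 751, 699 and 747 CPM at 3 h and 438, 476 and 464 CPM at 24 h (log2 fold change -0.67), and Hspa9 (-0.66), Hsp90aa1 (-0.48) and Cct2 (-0.43) fell likewise. Chaperones of the endoplasmic reticulum showed the opposite count, with 18 of 22 higher and 2 lower (median 0.24). Hspa5, the chaperone BiP, rose from 617 ± 9.55 to 998 ± 12.5 CPM (log2 fold change 0.69), Sdf2l1 by 0.996 and the transcription factor Xbp1 by 0.61, whereas the sensors Ern1 (-0.45) and Atf6 (-0.36) fell. Of 31 proteasome subunits, 9 fell (29% against 30.2% of all genes) and 1 rose (3.23% against 30.8%). The member that rose, Psmb1, changed by 0.14 on the log2 scale, a call lost without any 1 of 4 libraries (replicates 1 and 2 of both fed groups). The count that rose was 2 without fed 3 h replicate 3 or unfed replicate 1.

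DNA replication genes were lower at 24 h, while those of mitosis had no common direction. Of 44 S phase genes, 39 fell (88.6% against 30.2% of all genes) and 0 rose by the edgeR test (median -0.31), all by less than 2-fold. Cdt1, which licenses replication origins, fell from 91.8 ± 3.21 to 60.2 ± 1.97 CPM (log2 fold change -0.61, adjusted p = 1.35e-07), and cyclin E1 (Ccne1, -0.59) and Mcm10 (-0.55) fell too. Of 43 genes of G2 and mitosis, 8 rose and 12 fell, 18.6% and 27.9% against 30.8% and 30.2% of all genes. Their median was -0.05, and 14 rose under upper quartile scaling. The kinetochore gene Ndc80 (log2 fold change 0.50) was higher, and the kinase Aurka (-0.41) and the mitotic factor Foxm1 (-0.39) were lower. Among 16 D cyclins, CDK inhibitors and E2F genes 8 rose and 7 fell, with the pocket protein Rbl2 higher (log2 fold change 0.62) and Cdk6 lower (-0.57). The E2F sites TTTGGCGC and TTTCCCGC were in 9.76% and 7.32% of the 41 windows of S phase genes, against 0.417% and 0.895% of all windows. Among the windows of tested genes the shares were 0.783% and 1.68%. Of 27 p53 targets, 12 rose and 8 fell, 44.4% and 29.6% against 30.8% and 30.2% of all genes. Trp53inp1 (log2 fold change 1.17) and Sesn1 (0.84) were higher and Plk2 (-0.75) was lower. In the BCL2 family, 4 of 13 rose and 5 fell, 30.8% and 38.5% against 30.8% and 30.2% of all genes. Bmf, a death-promoting member, rose from 1.27 ± 0.149 to 5.39 ± 0.187 CPM, and Bok (log2 fold change -0.67), Bid (-0.43), Bax (-0.34) and Bak1 (-0.27) fell.

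Genes for the uptake and digestion of cells moved in both directions. Of 24 engulfment genes, 10 rose and 8 fell, 41.7% and 33.3% against 30.8% and 30.2% of all genes. The bridging protein Gas6 (GRCm38 chromosome 8, 13465374 to 13494490), which ties lipids of a dying cell to its receptor, was at 55.4, 51.1 and 52.998 CPM in fed 3 h, 212, 189.7 and 204 CPM in fed 24 h and 149.6, 112 and 122.9 CPM in unfed cells (log2 fold change 1.92, SE 0.0812, adjusted p = 4.48e-11). Its fed 24 h libraries were above all others. The second bridge, Pros1, rose by 0.30 on the log2 scale. Of the receptors that these bridges engage, Axl fell from 1332, 1227 and 1307 CPM to 823, 872 and 787 CPM (-0.64, adjusted p = 6.66e-08) and Tyro3 fell by 0.40 on the log2 scale. Mertk, the third, was called higher (0.351 to 0.658 CPM), and the call was lost without any 1 of 3 libraries (fed 3 h replicate 1, fed 3 h replicate 3 or fed 24 h replicate 3). The engulfment receptor Megf10 (log2 fold change -0.65) and the integrin Itgav (-0.44) fell, and the adaptors Gulp1 (0.91) and Elmo1 (0.56) rose. Cd36 had too few counts to be tested.

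Lysosomal hydrolases rose in 18 of 31 genes (58.1% against 30.8% of all genes) and fell in 5, or in 3 under upper quartile scaling, with no change of 2-fold. The cathepsins Ctso (log2 fold change 0.93) and Ctsh (71.3 to 104 CPM, 0.54) and the sphingomyelinase Smpd1 (0.47) were higher. Dnase2a, which digests the DNA of engulfed cells, was lower (log2 fold change -0.28, adjusted p = 0.00058), as was Ctsl (-0.18). Lysosomal membrane and pump genes were split 7 to 7 of 20, with the sterol carrier Npc2 (log2 fold change 0.50) and Lamp2 (0.28) higher and the lysosomal transcription factors Mitf (-0.41) and Tfe3 (-0.29) lower. The CLEAR site TCACGTGA, which those factors bind, was in 9.62% of the 52 lysosomal windows, 0.785% of all windows and 1.52% of the windows of tested genes. Of 37 autophagy genes, 19 rose and 8 fell. The cargo receptors Nbr1 (log2 fold change 0.62), Calcoco1 (0.52) and Optn (0.48) were higher, and Sqstm1, the receptor p62, was lower, at 399 ± 7.05 CPM against 528 ± 6.16 CPM (-0.40).

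Sqstm1 is also a target of NRF2, the factor of the oxidative stress response, and of 15 such targets 9 fell and 5 rose. Txnrd1, thioredoxin reductase, was at 860.0, 785 and 793 CPM in fed 3 h and 293, 307 and 312 CPM in fed 24 h (log2 fold change -1.42, SE 0.0701, adjusted p = 2.03e-10), with 334 CPM in unfed cells. Hmox1, which opens the haem ring and frees its iron, was at 335, 304 and 277 CPM and then 129.5, 125 and 128 CPM (log2 fold change -1.26), with 116 CPM in unfed cells. For both genes the fed 24 h and unfed levels were close and the fed 3 h libraries stood above. The glutathione genes Gsr (log2 fold change -0.81), Gclc (-0.75) and the cystine importer Slc7a11 (2.41 to 0.587 CPM, -2.04) fell too. Of 8 iron genes 4 rose and 3 fell. The chains of ferritin, the iron store, parted, with the heavy chain Fth1 rising from 2953 ± 99.8 to 3699 ± 272 CPM and the light chain Ftl1 falling from 2285 ± 63.1 to 1503 ± 74.7 CPM, and the transferrin receptor Tfrc fell (log2 fold change -0.90). Ferritin genes have processed copies in the genome, so their counts carry the uncertainty of reads with several matches.

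Genes of sterol synthesis and uptake, which make cholesterol or take it in, rose together. All 24 were higher at 24 h (100% against 30.8% of all genes), 15 of them at least 2-fold, with a median log2 fold change of 1.06. Fdps, farnesyl diphosphate synthase, was at 5.14, 4.37 and 4.70 CPM in fed 3 h, 18.5, 18.9 and 18.4 CPM in fed 24 h and 18.7, 17.5 and 15.3 CPM in unfed cells (log2 fold change 1.97, SE 0.0831, adjusted p = 4.45e-11). Nsdhl, a late enzyme of the pathway, was at 56.4, 55.8 and 56.2 CPM and then 175, 179 and 171 CPM, with 194, 159 and 160.4 CPM in unfed cells (log2 fold change 1.64). Replicates differed little, and the fed 24 h and unfed libraries overlapped in level. The regulator Srebf2 rose by less (log2 fold change 0.52), while the feedback inhibitor Insig1 rose by 1.44. Per library, the median of the list relative to the fed 3 h mean was 1.06 to 1.10 in fed 24 h and 1.09 to 1.28 in unfed cells. The fed 3 h libraries were the low ones.

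The CCAAT box, where the factor NF-Y binds beside sterol-responsive elements, is one of the patterns searched in the promoters of these genes. It was found on either strand in 84.2% of their 19 RefSeq windows, in 16 of 16 members with a window, against 33.8% of all windows and 73.7% of the 38 windows of G2 and mitosis genes. Among the windows of tested genes its share was 36%. The sterol element TCACNCCAC was found in 1 member, Hmgcs1 (5.26% of the windows against 1.05% of all). Tm7sf2 (chr19:6067851-6068100, minus strand), a sterol reductase that went from 3.31 ± 0.227 to 12.5 ± 0.273 CPM, and Mvd (chr8:122443423-122443672, minus strand), which makes isopentenyl units and went from 14.9 ± 0.465 to 49.9 ± 1.20 CPM, are the members of largest change with a window and show the box in capitals.
Tm7sf2: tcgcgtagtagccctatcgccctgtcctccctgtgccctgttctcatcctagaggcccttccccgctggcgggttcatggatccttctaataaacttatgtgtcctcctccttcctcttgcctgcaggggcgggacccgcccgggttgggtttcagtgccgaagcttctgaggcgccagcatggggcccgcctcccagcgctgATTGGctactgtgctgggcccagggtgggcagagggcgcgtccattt
Mvd: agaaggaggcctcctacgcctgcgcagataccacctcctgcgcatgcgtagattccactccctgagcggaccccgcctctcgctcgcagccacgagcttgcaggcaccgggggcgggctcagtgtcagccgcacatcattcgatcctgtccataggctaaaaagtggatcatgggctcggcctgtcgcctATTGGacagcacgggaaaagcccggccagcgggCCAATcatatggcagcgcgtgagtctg
The box starts 47 bases before the annotated start in Tm7sf2, and 60 and 27 bases before it in Mvd.

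Other lipid genes rose as well. Targets of LXR, the sensor of excess sterol, rose in 7 of 9 and fell in 0 by the edgeR test. The sterol exporter Abca1 went from 1.82 ± 0.0394 to 4.33 ± 0.241 CPM (log2 fold change 1.25), with 2.27 CPM in unfed cells, and the ubiquitin ligase Mylip rose by 0.92. Fatty acid synthesis genes rose in 9 of 11 and fell in none. Scd2, a desaturase, was at 902, 899 and 914 CPM in fed 3 h and 2373, 2513 and 2288 CPM in fed 24 h (log2 fold change 1.40, SE 0.0621, adjusted p = 6.85e-11), and Scd1 (0.98) and Fads1 (0.82) rose beside it. Fatty acid oxidation genes rose in 22 of 24 (91.7%, median 0.30). Acadm, the medium-chain dehydrogenase, was at 55.6, 54.3 and 56.8 CPM and then 122, 124 and 121 CPM (log2 fold change 1.14), against 91.6 CPM in unfed cells. The one member that fell was Cpt1a, the gate of fatty acid entry into mitochondria, by 0.11 on the log2 scale, a call lost without fed 3 h replicate 1, fed 24 h replicate 1 or fed 24 h replicate 3. Its partner Cpt2 rose (0.62).

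**Figure D3:**
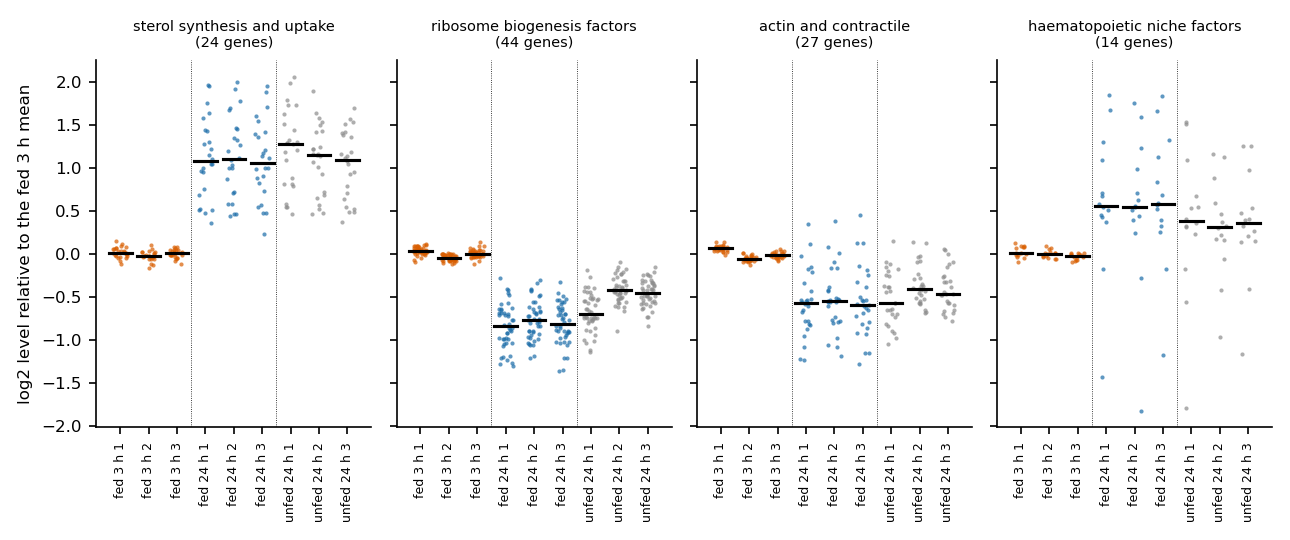
Levels of the members of 4 lists in each of the 9 libraries (x axis), as log2 of the level relative to the fed 3 h mean of the same gene (y axis). Points are genes that average 5 CPM or more in either fed group, and bars are medians. The 4 lists hold 24, 44, 27 and 14 such genes. The sterol bars are at 1.06 to 1.10 in the fed 24 h libraries and at 1.09 to 1.28 in the unfed ones, and the ribosome biogenesis bars are at -0.77 to -0.84 and -0.42 to -0.70.

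Mitochondrial genes did not change as a block. Of 13 mitochondrially encoded mRNAs 7 were tested, and 6 rose (median 0.43). mt-Co1 was at 5521, 5938 and 4124 CPM in fed 3 h, with replicate 3 the lowest, and 6886, 8539 and 6575 CPM in fed 24 h, with replicate 2 the highest (log2 fold change 0.50, SE 0.111, adjusted p = 0.00111). Without fed 3 h replicate 3 the median of the list was 0.29. Nuclear genes of the respiratory chain rose in 27 of 55 and fell in 6, all by less than 1.5-fold. Ndufa4 rose from 155 ± 10.5 to 217 ± 10.6 CPM, and Cyc1 fell by 0.27 on the log2 scale. In contrast, regulators of mitochondrial biogenesis fell in 13 of 18 and rose in 1, Mterf4 (log2 fold change 0.74), or in 2 without fed 24 h replicate 1 and 3 under upper quartile scaling. The coactivator Pprc1 was at 129, 117 and 118 CPM and then 54.7, 59.0 and 68.4 CPM (log2 fold change -0.996, adjusted p = 3.56e-08), and Ppargc1b (2.89 to 0.929 CPM, -1.63), the mitochondrial DNA helicase Twnk (-0.65), Nrf1 (-0.54) and the packaging factor Tfam (-0.39) fell. Ppargc1a had too few counts to be tested. Mitochondrial ribosomal proteins fell in 19 of 34 (median -0.17) and 1, Mrpl24, was higher, a call lost under 7 alternatives.

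Of 24 genes of mitochondrial shape, 4 rose and 8 fell, 16.7% and 33.3% against 30.8% and 30.2% of all genes. The fusion genes Mfn1 (50.7 ± 0.803 against 51.0 ± 1.36 CPM) and Opa1 (86.5 ± 1.02 against 84.1 ± 3.49 CPM) and the fission motor Dnm1l (125 ± 2.15 against 129.8 ± 2.69 CPM) did not pass the test, with log2 fold changes of 0.01, -0.04 and 0.06 and adjusted p of 0.867, 0.424 and 0.201. Under upper quartile scaling Dnm1l was called higher. Mfn2 fell (log2 fold change -0.28), as did the fission adaptor Mief1 (-0.46), while the inner membrane protease Oma1 rose (0.81). Of 10 fission genes 2 rose and 3 fell, and of 14 fusion and cristae genes 2 rose and 5 fell. A single fission gene rose without fed 3 h replicate 1, fed 3 h replicate 3 or fed 24 h replicate 1, and a single fusion gene without fed 3 h replicate 2. The count of fission genes that fell was 1 under upper quartile scaling. Of 18 mitophagy genes, which mark mitochondria for digestion, 7 rose and 8 fell. The receptor Bnip3 was at 13.9, 15.3 and 15.9 CPM in fed 3 h and 33.7, 29.5 and 32.0 CPM in fed 24 h (log2 fold change 1.08, SE 0.0655, adjusted p = 1.77e-09), and Bnip3l (0.40) and the kinase Pink1 (0.55) rose, whereas the phosphatase Pgam5 fell (-0.65).

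Glycolysis genes were split, with 7 of 20 higher and 10 lower, 35% and 50% against 30.8% and 30.2% of all genes. Pdk1, a kinase that inhibits pyruvate dehydrogenase, was at 13.4, 12.7 and 14.4 CPM at 3 h and 38.4, 41.0 and 38.3 CPM at 24 h (log2 fold change 1.54, adjusted p = 2.55e-11). The phosphofructokinases Pfkl (log2 fold change 0.71) and Pfkm (0.59) rose, and the lactate carrier Slc16a1 (88.7 to 35.8 CPM, -1.31), hexokinase Hk2 (-0.93) and the regulators Pfkfb3 (-0.87) and Pfkfb4 (-0.44) fell. Among 17 other hypoxia-inducible genes, 7 rose, the vessel dilator Adm by 0.92 on the log2 scale, and 4 fell.

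Osteoblast genes were also mixed as a list, but several well-known ones rose strongly. Of 20 regulators 8 rose and 6 fell, and of 17 matrix and mineralization genes 6 rose and 5 fell, with medians of 0.03 and -0.04, the latter running from -0.08 to 0.13 over the alternatives. Over the whole list 37.8% rose and 29.7% fell, against 30.8% and 30.2% of all genes. Alpl, the alkaline phosphatase that frees phosphate for mineral, was at 1.97, 2.07 and 1.92 CPM in fed 3 h, 13.3, 14.8 and 13.9 CPM in fed 24 h and 12.3, 10.2 and 10.7 CPM in unfed cells (log2 fold change 2.82, SE 0.0976, adjusted p = 1.09e-11). Bmp4, a bone-inducing ligand, was at 32.6, 39.8 and 37.6 CPM, 202, 203 and 197 CPM and 185, 162 and 146 CPM in the same order (log2 fold change 2.45, SE 0.0804, adjusted p = 6.78e-12). In both genes unfed cells were much nearer to fed 24 h than to fed 3 h. Spp1, osteopontin, rose from 1678 ± 84.4 to 3525 ± 174 CPM with 2278 CPM in unfed cells. Osteomodulin (Omd, log2 fold change 2.66), matrix Gla protein (Mgp, 1.18), which restrains mineralization, and the homeobox factor Dlx5 (1.03) rose. Runx2, the master regulator of osteoblasts, rose from 70.1 ± 5.01 to 82.3 ± 4.80 CPM (log2 fold change 0.23, adjusted p = 0.00194), and Sp7, which acts after it, rose at a low level (0.392 to 1.31 CPM, 1.74). Falls included the decoy receptor of RANKL, Tnfrsf11b (96.0, 81.7 and 89.6 CPM, then 36.7, 37.1 and 39.9 CPM, log2 fold change -1.23), the phosphate importers Slc20a1 (-1.17) and Slc20a2 (-1.09) and the pyrophosphate carrier Ank (-0.75). Tnfsf11, RANKL itself, did not pass the test (0.236 against 0.124 CPM, adjusted p = 0.0873).

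Signals that act on osteoblast precursors moved in both directions. In the BMP and TGF-beta list 15 of 40 genes rose and 14 fell, 37.5% and 35% against 30.8% and 30.2% of all genes. Of 12 ligands and antagonists of BMP and TGF-beta 7 rose and 3 fell, of 16 receptors and Smads 3 rose and 8 fell, and of 12 targets 5 rose and 3 fell. The BMP antagonist Grem1 rose (log2 fold change 0.61) beside Bmp4, the BMP targets Id3 (0.64) and Atoh8 (0.89) and the inhibitor Smad6 (0.51) rose, and the TGF-beta ligand Tgfb1 (-0.45), its receptor Tgfbr1 (-0.42) and its target Skil (-1.06) fell. In the WNT pathway 11 of 23 genes rose and 7 fell (47.8% and 30.4%). The secreted WNT inhibitors Wif1 (0.893 to 7.89 CPM, log2 fold change 3.14), Sfrp1 (1.78 to 9.001 CPM, 2.34) and Sfrp4 (3.93 to 17.5 CPM, 2.15) rose from low levels, with the ligand Wnt4 (2.64). The nuclear effector Lef1 was at 10.9, 9.18 and 9.51 CPM in fed 3 h and 2.67, 2.32 and 3.13 CPM in fed 24 h (log2 fold change -1.86, adjusted p = 1.53e-08), and the target Ccn4 (-1.16) and the ligand Wnt10b (-0.58) fell. Of 12 Notch genes 6 rose, the receptor Notch3 by 1.29 on the log2 scale, and 2 fell, the target Hey2 (1.40 to 0.281 CPM) and the receptor Notch4 (-0.89).

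Factors with which stroma supports blood stem cells were higher at 24 h in 17 of 22 genes (77.3% against 30.8% of all genes) and lower in 2 (median 0.57). Cxcl12 (GRCm38 chromosome 6, 117168535 to 117181367), the chemokine that holds stem cells in the marrow, was at 2215, 2359.5 and 2251 CPM in fed 3 h, 8164, 7646 and 8112 CPM in fed 24 h and 6594, 5096 and 5447 CPM in unfed cells (log2 fold change 1.81, SE 0.0749, adjusted p = 4e-11). Kitl, stem cell factor, was at 167, 166 and 167 CPM, 530.3, 505 and 528 CPM and 474, 364 and 398 CPM in the same order (log2 fold change 1.64, SE 0.0716, adjusted p = 6.11e-11). Both had the fed 24 h libraries on top, the unfed ones next and the fed 3 h ones lowest, with no overlap between the fed groups. Angpt1, a ligand of vessel and stem cells, rose from 122 ± 1.06 to 297 ± 10.6 CPM, the adhesion molecule Vcam1 by 0.60 on the log2 scale and Igf1 from 1.00 ± 0.325 to 3.64 ± 0.473 CPM. The neural and stromal filament Nes fell (log2 fold change -1.45). Fat cell genes rose in 10 of 16, such as lipoprotein lipase (Lpl, 192 to 552 CPM, log2 fold change 1.53), Cebpa (1.31) and Fabp4 (1.46), and fell in 4, Pparg, the master factor of fat cells, among them (-0.44). The median of this list was 0.82 and lay between 0.51 and 0.55 under 10 alternatives, among them the omission of any one of the fed 3 h libraries, fed 24 h replicate 3 or any one of the unfed libraries. In the IGF list 7 of 13 rose, Stc1 from 0.243 to 5.52 CPM and the binding protein Igfbp5 from 0.653 to 6.42 CPM, and 5 fell, or 3 without fed 3 h replicate 1 or fed 24 h replicate 1. Clock genes were divided, 6 of 18 higher and 7 lower, 33.3% and 38.9% against 30.8% and 30.2% of all genes. Per1 (log2 fold change 0.53) and Rora (0.92) were up, and Bhlhe41 (-1.17) and Nr1d2 (-0.55) were down. The clock hour of collection is not given in the sources used here.

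**Figure D4:**
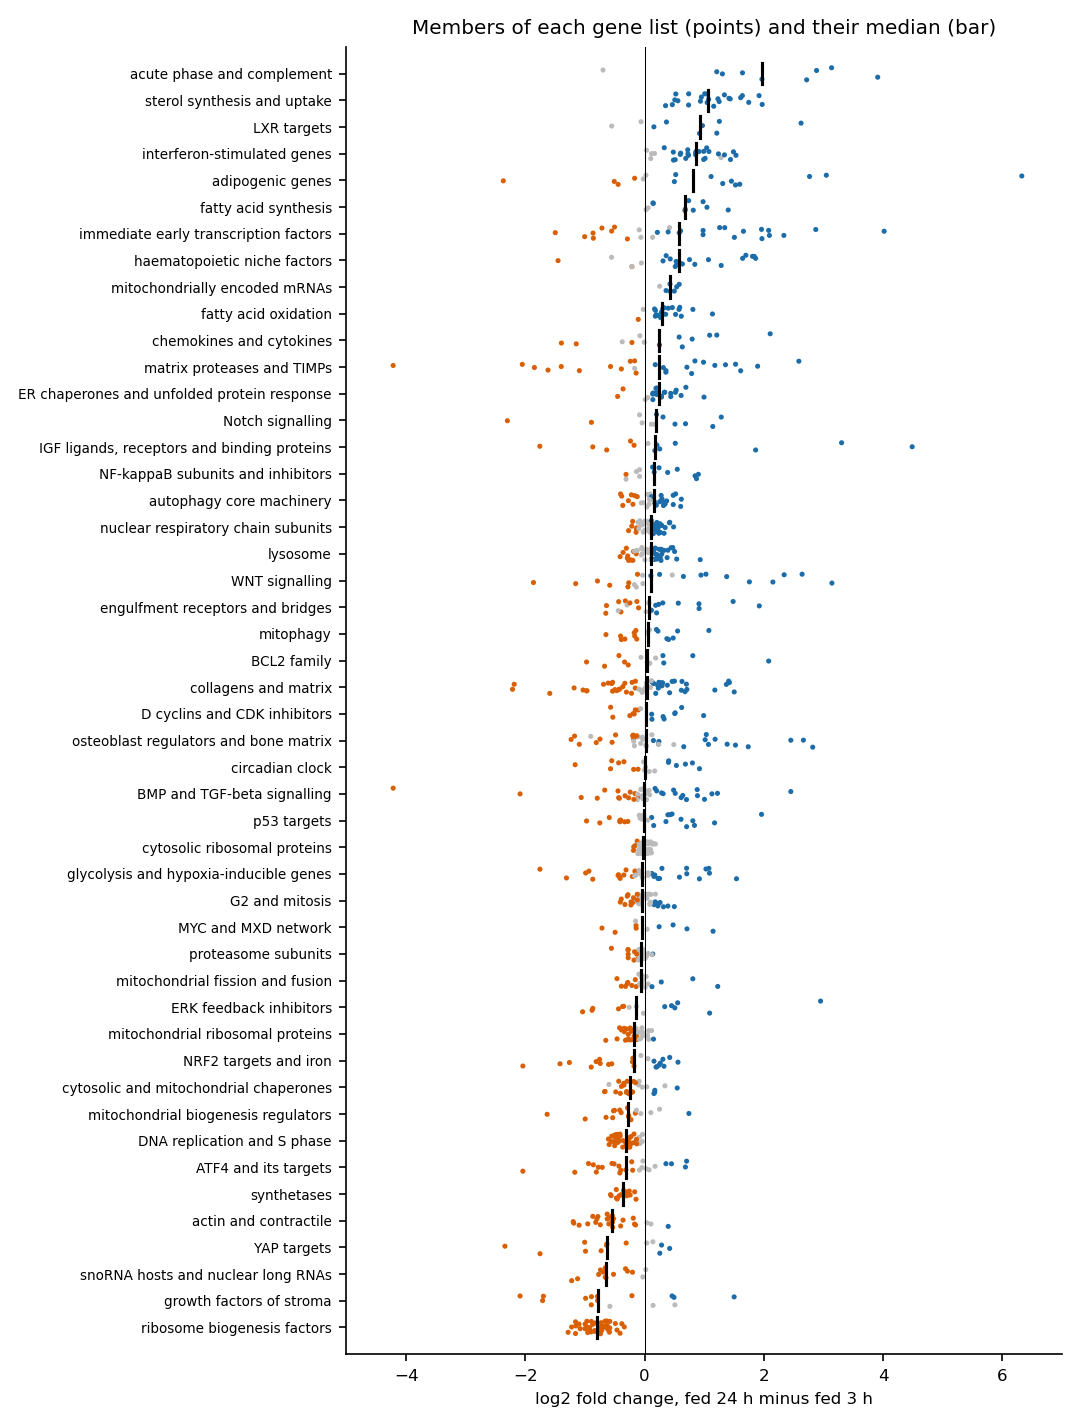
Log2 fold change of fed 24 h minus fed 3 h (x axis) for the tested members of each list (y axis, ordered by median), blue where called higher, orange where called lower and grey where not called, with the median as a bar. The lists run from ribosome biogenesis factors at -0.80 to acute phase and complement at 1.97, and most lie near 0 with members on both sides.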

How the data were processed

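Whole-transcriptome libraries of ST2 cells, 9 in all, were deposited as 1 table of raw counts per gene, with 0 columns left unused. The submitters' processing notes list featureCounts, Subread 1.6.4, MultiQC 1.7, STAR 2.7.0f and the builds GRCm38.p6 and GRCh38.p13. Not stated there are the annotation, the strand setting, the treatment of reads with several matches and the use of both genomes. The labels' protocols name a stranded mRNA kit in one place and an unstranded full-length kit in another, so reads of overlapping, antisense or near-identical genes cannot be assigned with certainty. Of 55453 lines, 54560 (98.4%) matched a GENCODE symbol, 26 carried date-like symbols and 2 repeated a symbol. Locations are those of the matched annotation on GRCm38.

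Groups were taken from the labels. The deposited counts were filtered with filterByExpr and scaled by TMM, and 1 edgeR 4.0.16 quasi-likelihood model (R 4.3.3, limma 3.58.1) was fitted to all 9 libraries, checked on simulated counts. In the simulation few genes changed, in balance up and down, so it does not check the scaling where most genes change, as here. Fed 24 h was compared with fed 3 h, and p-values were adjusted by Benjamini-Hochberg over 13568 genes, which held at least 99.96% of each library's counts. Genes with an adjusted p under 0.05 are called changed. Libraries held 44442664 to 55971275 counts. Replicates of a group differed by more than sampling noise (chi-square per degree of freedom 5.205 to 15.362), so none was counted as a duplicate.

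Named genes are the 12 largest rises and 12 largest falls among called genes whose fed groups did not overlap and with at least 10 CPM in the higher group, leaving out ribosomal protein genes, haemoglobins, pseudogenes and unnamed clones. They also include up to 4 called members per list and direction with at least 5 CPM in the higher fed group, and a fixed set. Other members named were chosen after their values were seen. The members and the 51 gene lists were chosen with earlier results of these data known. Lists are described by counts and medians. Alternatives were other scalings, DESeq2 1.42.0, limma-voom, other filters, the 6 fed libraries alone, a replicate block and the omission of each library. Some genes are not reported here.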

Additional observations from a re-analysis of the deposited data

How the results depend on the processing

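No named gene called in the main fit or an alternative reversed direction under any of the 18 alternatives. Sign changes of genes called in neither fit were not counted, and a gene was skipped where an alternative did not test it. Of 398 named genes 393 were called, and 370 kept call and direction under every alternative that tested them. The call was lost under at least 1 alternative for 23, among them Col1a1, Cpt1a, Mrpl24, Mertk, Psmb1, Rpl18 and Rpl7a. With each library left out in turn, 3815 to 4347 genes were called higher and 3696 to 4197 lower at 24 h, and 719 to 790 were at least 2-fold higher and 414 to 468 at least 2-fold lower. A stricter filter on low counts, which tested 11557 genes, left 477 at least 2-fold higher and 254 at least 2-fold lower. Upper quartile scaling called 4670 genes higher and 3630 lower, with a median log2 fold change of 0.039 over all genes, and DESeq2's Wald test called 3975 higher and 4017 lower. Replicates of the same number did not deviate together (correlations of -0.163 to 0.058), and a fit with the replicate block called 4064 higher and 4027 lower. Without a filter the median of the WNT list was -0.02, that of the iron list -0.06 and that of the stromal growth factors -0.49. Depth limits the tests of genes under about 1 CPM, such as Tnfsf11 and Mertk.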

Other observations

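Gene families defined by their symbols, some of whose members are also in lists above, are given here, and they were chosen after their values were seen. The shares over all tested genes, to be read beside each count, were 30.8% higher and 30.2% lower. Of 14 tested genes of intraflagellar transport, which carries cargo along cilia, 13 were higher at 24 h and 0 lower by the edgeR test (median log2 fold change 0.41), and Ift88 rose from 8.78 ± 0.547 to 11.4 ± 0.400 CPM. Clustered beta protocadherins, cell surface proteins that are near-identical in parts, were higher in 16 of 20 and lower in 0 (median 0.63). Members of the PARP family rose in 10 of 12 and fell in 1, and Parp14, which attaches ADP-ribose to proteins, went from 8.11 ± 0.604 to 18.5 ± 0.999 CPM. Nucleoporins, the parts of the nuclear pore, fell in 17 of 19 and rose in 0 (median -0.36), with Nup98 at 133 ± 0.970 CPM at 3 h and 98.6 ± 4.50 CPM at 24 h. RNA polymerase subunits, Polr1b among them, fell in 20 of 28 and rose in 1. Translation initiation factors of the Eif family fell in 34 of 53 and rose in 6. DEAD-box helicases of the Ddx family fell in 23 of 32 and rose in 4, Ddx58 among them.

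Genes outside the lists also changed by more than 2-fold, and 3 of them are given here, chosen after their values were seen. Il1rn, the antagonist of the interleukin 1 receptor, was at 129.6, 120.4 and 116 CPM in fed 3 h, 799, 827 and 788 CPM in fed 24 h and 709, 488 and 526 CPM in unfed cells (log2 fold change 2.72, SE 0.104, adjusted p = 1.83e-11, edgeR). Mme, the membrane peptidase neprilysin, was at 86.8, 84.2 and 75.8 CPM, 415, 402 and 409.8 CPM and 318, 210.3 and 260.1 CPM in the same order (log2 fold change 2.31, adjusted p = 8.52e-11). Both rose with no overlap between the fed groups. Txnip, which restrains glucose uptake, fell from 41.4, 39.4 and 41.6 CPM to 10.7, 11.7 and 10.6 CPM (log2 fold change -1.89, adjusted p = 2.15e-11), with 15.1 CPM in unfed cells. Processed pseudogenes, whose reads can come from their parent genes, were higher in 17 of 407 and lower in 56. Over all tested genes 30.8% were higher and 30.2% lower.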
